A study of Mus musculus with 36 samples.

Results

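A scrambled oligonucleotide is given as a control because its letters are not meant to match any transcript, and the comparison asks whether its dose alone changed gene expression in blood. The 12 libraries described here are those of the scrambled control at weeks 2 and 4, out of 36 in the series. They were chosen by their titles: 6 libraries at 3 mg/kg (3 from week 2 and 3 from week 4) and 6 at 2 mg/kg (again 3 from each week). All 12 came from peripheral blood of Townes sickle cell mice, in which human globin genes replace the mouse ones. The control was delivered from a mini-osmotic pump and globin mRNA was depleted from the RNA before sequencing. Week 0 scrambled libraries, 3 at each dose, and the 12 libraries given MIR29B, the active cholesterol-modified microRNA, at weeks 2 and 4 enter only where named. The labels do not say whether dosing had begun when week 0 blood was drawn. Nothing in them ties libraries of different weeks to the same or to separate animals, so p-values measure the spread between these samples.

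Oligonucleotides in blood can be met by sensors of foreign nucleic acid: Toll-like receptors in endosomes, and RIG-I, MDA5 and the kinase PKR (gene Eif2ak2) in the cytosol. These are known to lead to type I interferon, which switches on interferon-stimulated genes through response elements in their promoters, and to NF-kappa-B, which switches on inflammatory cytokines. The lists described below follow those steps, then the cell types of blood, then stress and red cell programmes.

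The mature strand that MIR29B carries and the scrambled control stands in for is shown with its seed, bases 2 to 8, in capitals. RefSeq (GRCm38.p6) places it at Mir29b-1, chr6:31063025-31063047 on the minus strand, and at Mir29b-2, chr1:195037091-195037113 on the plus strand. The sequence of the scrambled control is in none of the sources used here.
mmu-miR-29b-3p: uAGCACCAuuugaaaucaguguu

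Promoters of 2 interferon-related genes are shown because both genes lay lower at 3 mg/kg at week 2. Ifit1 encodes a protein that binds foreign RNA, and Eif2ak2 encodes PKR. Each window runs from 250 bases before to 50 bases after the RefSeq start, 5′ to 3′ on the gene's strand. Capitals mark the letters GAAANNGAA, a core of the interferon response element, on either strand, and overlapping matches run together.
Ifit1, chr19:34640639-34640938, plus strand: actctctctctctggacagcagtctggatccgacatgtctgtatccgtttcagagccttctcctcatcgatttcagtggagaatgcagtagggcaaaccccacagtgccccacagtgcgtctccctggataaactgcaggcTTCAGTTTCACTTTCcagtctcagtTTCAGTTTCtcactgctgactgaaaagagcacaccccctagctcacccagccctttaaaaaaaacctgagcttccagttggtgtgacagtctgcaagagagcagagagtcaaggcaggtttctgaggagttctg
Eif2ak2, chr17:78882523-78882822, minus strand: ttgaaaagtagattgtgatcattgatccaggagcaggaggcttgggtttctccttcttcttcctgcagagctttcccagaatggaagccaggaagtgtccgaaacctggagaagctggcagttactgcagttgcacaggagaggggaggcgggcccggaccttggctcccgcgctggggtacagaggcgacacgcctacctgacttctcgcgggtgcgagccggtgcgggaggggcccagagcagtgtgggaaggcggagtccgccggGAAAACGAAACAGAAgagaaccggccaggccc
The letters occurred in 8.56% of all 32851 promoters in the RefSeq table, and in 60% of the 40 promoters of interferon-stimulated genes there. By gene, they occurred in 2638 of 27025 genes, and in 22 of the 33 interferon-stimulated genes with a promoter there. A match is a description of these letters, not a shown site of binding.

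Library totals over all transcripts ran from 10.7 to 36.92 M counts at 3 mg/kg and from 17.92 to 34.41 M at 2 mg/kg, M standing for the prefix mega. None of 7 measures per library separated the doses when averaged over weeks 2 and 4. These were totals, genes detected, ribosomal RNA share, ribosomal protein share, top 10 share and a transcript length index. Ribosomal RNA here means 14 entries: Rn28s1 and noncoding RefSeq entries without a symbol, whose identity was not checked. The exact permutation p ran from 0.415 to 0.98, where 0.005 is the smallest that exchanging dose within weeks can give. At week 2 the ribosomal RNA share did not overlap, at 4.653%, 3.98% and 4.234% at 2 mg/kg and 2.954%, 2.385% and 2.956% at 3 mg/kg. It overlapped at week 4, and week 2 alone was not tested. The label calls the cells erythrocytes, and Alas2, the first enzyme of red cell heme synthesis, stood at 60000 CPM or more in all 12 (CPM is the count scaled to library size, here with TMM factors). White cell and platelet transcripts were also present, such as S100a9 of neutrophils at 157 to 1080 CPM and Pf4 of platelets at 22.7 to 544 CPM, so in whole blood fewer cells of a type and less RNA per cell cannot be told apart. Week 2, 3 mg/kg replicate 1 stood apart, with 15.71% of its counts in ribosomal protein genes, where the next of the 6 libraries at that dose had 8.873%. Week 4, 3 mg/kg replicate 1 had 7.388% ribosomal RNA so defined, with Rn28s1 alone at 2.473% of its counts. By sex as read from the counts, 2 of 3 libraries at 2 mg/kg and 1 of 3 at 3 mg/kg were female at week 2, and 2 of 3 at each dose at week 4. By that reading the 3 mg/kg libraries of weeks 2 and 4 did not all come from the same 3 mice.

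Averaged over weeks 2 and 4, edgeR's quasi-likelihood test called 0 of 11953 genes (0%) between the doses at a Benjamini-Hochberg adjusted p under 0.05, and the smallest adjusted p was 0.333. At an unadjusted p under 0.05 there were 304 genes higher at 3 mg/kg (2.54%) and 345 lower (2.89%), 649 in all, where 598 are expected by chance. DESeq2, the other count model, called 7 genes, 5 higher and 2 lower, and limma's voom called 0. The median log2 fold change over all genes was 0.009. Within week 2 the test called 5 genes (0.0418%), 3 higher and 2 lower at 3 mg/kg, with 790 (6.61%) higher and 704 (5.89%) lower at an unadjusted p under 0.05. DESeq2 called 241 genes there, 155 higher and 86 lower, with all 5 among them, and edgeR called 250 when genes with low counts were kept. Within week 4 it called 0 genes (0%), with 151 (1.26%) higher and 143 (1.2%) lower, and DESeq2 called 0. At an unadjusted p under 0.05 there were 1494 genes in all at week 2 and 294 at week 4, where 598 are expected by chance in each.

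The 2 genes that fell at week 2 were Zfp825 and Dkc1. Zfp825, a zinc finger gene at chromosome 13, 74478378 to 74494012, stood at 8.651, 32.77 and 12.61 CPM in the 3 libraries at 2 mg/kg and at 3.089, 3.451 and 3.445 CPM at 3 mg/kg. All 3 libraries at the higher dose were below all 3 at the lower, and replicate 2 at 2 mg/kg was far above its group. The log2 fold change was -2.43 ± 0.41 (SE) with an edgeR adjusted p of 0.0125. At week 4 the doses overlapped, with 13.61, 15.65 and 15.3 CPM against 9.345, 14.62 and 15.34 CPM (-0.18 ± 0.38).

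Dkc1 encodes dyskerin, which guides pseudouridine into ribosomal RNA and stabilises telomerase RNA, at chromosome X, 75095854 to 75109776. It stood at 16.33, 20.57 and 7.207 CPM at 2 mg/kg and 0.9506, 3.252 and 3.445 CPM at 3 mg/kg, with no overlap. Its log2 fold change was -2.54 ± 0.51 with an edgeR adjusted p of 0.0486. At week 4 the 3 mg/kg libraries were the higher ones, at 17.27, 18.05 and 23.84 CPM against 10.18, 15.34 and 15.07 CPM (0.54 ± 0.47, adjusted p of 1).

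Erfe, Xpnpep1 and Ndufa10 rose at week 2. Erfe encodes erythroferrone, the hormone by which erythroblasts lower hepcidin and free iron, at chromosome 1, 91366305 to 91374217. It had 0.05692, 0 and 0 CPM at 2 mg/kg and 12.24, 0.5974 and 1.378 CPM at 3 mg/kg, so the groups did not overlap and replicate 1 held most of the signal. The fitted log2 fold change of 7.05 ± 1.32 (edgeR adjusted p of 0.0378) rests on 1 library with counts at 2 mg/kg and depends on the model's prior count. At week 4 its values of 0.9517, 0.6057 and 0.685 CPM at 2 mg/kg lay among the 0.2832, 2.346 and 0.5002 CPM at 3 mg/kg (0.44 ± 0.96).

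Xpnpep1, a cytosolic aminopeptidase gene at chromosome 19, 52931279 to 53038662, stood at 3.813, 2.27 and 2.293 CPM at 2 mg/kg and at 21.15, 8.23 and 7.119 CPM at 3 mg/kg. Every week 2 library at 3 mg/kg was above every one at 2 mg/kg (2.11 ± 0.42, edgeR adjusted p of 0.0486), and at week 4 the groups lay within 4.224 to 5.139 CPM (-0.01 ± 0.40). Ndufa10, a subunit of respiratory complex I at chromosome 1, 92439486 to 92473825, stood at 4.155, 6.242 and 4.75 CPM against 21.98, 21.17 and 10.79 CPM (1.84 ± 0.37, edgeR adjusted p of 0.0486). At week 4 its 3 mg/kg libraries lay at 5.776 to 7.174 CPM and those at 2 mg/kg at 5.855 to 11.9 CPM (-0.48 ± 0.36).

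**Figure D1:**
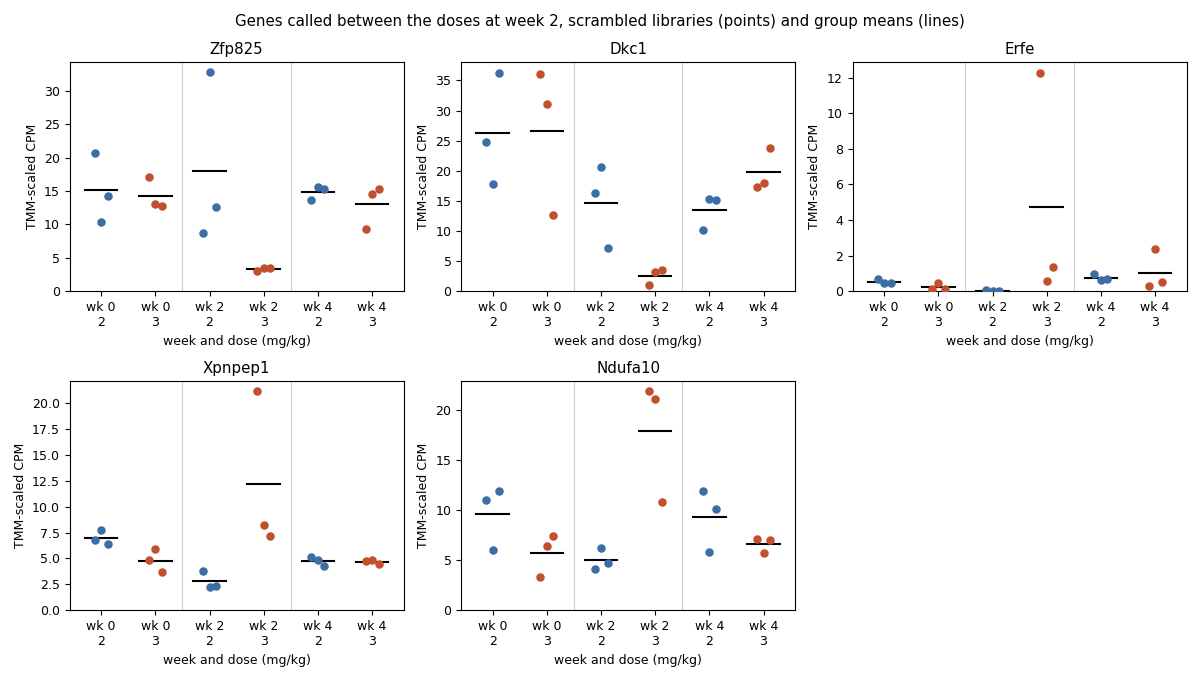
Levels in TMM-scaled CPM of the 5 genes called at week 2, by week and dose, with 1 point per library (blue 2 mg/kg, red 3 mg/kg) and a line at each group mean of 3. At week 2 the red points lie on one side of the blue points in all 5 panels. At weeks 0 and 4 the doses overlap except for Xpnpep1 at week 0, where the red points are the lower ones, and Dkc1 at week 4 (17.27 to 23.84 against 10.18 to 15.34).

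The week 2 calls depended on single libraries. Without 3 mg/kg replicate 1 the test called 1 gene, none of the 5, whose adjusted p were then 0.0748 for Zfp825 and 0.269 for the other 4. Erfe's log2 fold change was then 4.76 and Xpnpep1's 1.42. Without 2 mg/kg replicate 2 it called 0, and Zfp825's log2 fold change was -1.65. Without 2 mg/kg replicate 1 Ndufa10 was no longer called (adjusted p of 0.0884). With sex as a covariate, which is unevenly spread over the doses at week 2, the X-linked Dkc1 and Ndufa10 were not called (edgeR adjusted p of 0.0617 for both), and with RLE scaling Dkc1 was not (0.0612). None of the 5 was called from the 12 libraries alone or without the libraries over 5% ribosomal RNA. No week 2 scrambled library was over that share (highest 4.653%), so the latter fit left out none of the libraries compared. In it the log2 fold change was -2.43 for Zfp825 and 7.15 for Erfe. The difference between the weeks was tested directly: 0 of 11953 genes (0%) passed, with 509 (4.26%) at an unadjusted p under 0.05 in one direction and 646 (5.4%) in the other. For the 5 genes edgeR's adjusted p of that difference lay between 0.129 for Dkc1 and Ndufa10 and 0.249 for Xpnpep1. DESeq2 called 75 genes in it.

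In 5 genes all 6 libraries at one dose lay on one side of all 6 at the other, 2 above (0.0167% of the genes tested) and 3 below (0.0251%). These were chosen for having no overlap, after their values were seen. Itgb4, the integrin beta 4 subunit known from epithelia, at chromosome 11, 115974725 to 116008412, ran from 0 to 0.1707 CPM (median 0.09806) at 2 mg/kg and from 0.5415 to 1.545 CPM (median 0.9045) at 3 mg/kg. Its level was low at both doses, 12 counts in all at 2 mg/kg and 88 at 3 mg/kg, with a log2 fold change of 3.32 ± 0.93 and an edgeR adjusted p of 0.818. Ppard, a nuclear receptor that senses fatty acids, at chromosome 17, 28232754 to 28301469, ran from 0.4256 to 1.618 CPM and from 1.624 to 10.1 CPM (1.70 ± 0.50, adjusted p of 0.82), so its groups nearly touched.

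Eif5a2, a translation elongation factor that carries hypusine, at chromosome 3, 28781032 to 28798846, ran from 2.903 to 5.533 CPM (median 3.135) at 2 mg/kg and from 1.394 to 2.258 CPM (median 1.472) at 3 mg/kg. Its difference was alike in size in both weeks, -1.02 ± 0.43 at week 2 and -1.18 ± 0.43 at week 4 (mean -1.10 ± 0.30, edgeR adjusted p of 0.763). Pcgf6, a polycomb group protein, ran from 0.571 to 2.457 CPM and from 0.06637 to 0.4753 CPM (-1.85 ± 0.56). Zfp367, a zinc finger gene, ran from 1.817 to 4.567 CPM and from 0 to 1.378 CPM (-1.58 ± 0.48), and both had an adjusted p of 0.82. Read within each week, 14 genes (0.117%) had all 3 libraries at 3 mg/kg above all 3 at 2 mg/kg in both weeks, and 19 (0.159%) had them below. Exchanging dose within weeks at random gives either pattern at a rate of 0.005 in genes without ties. Both shares together lay below that rate.

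Other genes with small p-values in the averaged comparison did not pass the adjustment either. Hsp90aa1, the stress-inducible cytosolic HSP90 chaperone at chromosome 12, 110691036 to 110696395, stood at 4616, 21390 and 4017 CPM at 2 mg/kg and 1513, 860.2 and 3777 CPM at 3 mg/kg at week 2. At week 4 it stood at 15350, 11400 and 17540 CPM against 5338, 9332 and 8271 CPM. Within each week every library at 3 mg/kg was below every one at 2 mg/kg, and the log2 fold change was -1.62 ± 0.41 (edgeR adjusted p of 0.763). Dnaja1, another chaperone gene, was below the 2 mg/kg mean of its week in 6 of 6 libraries at 3 mg/kg (-1.01 ± 0.39, adjusted p of 0.859). Swt1, an endonuclease-domain protein linked to nuclear export of RNA, was below it in 6 of 6 as well (-1.28 ± 0.35, adjusted p of 0.763).

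Some of the smallest p-values belonged to genes with very few counts. Kbtbd8 had 38 counts over the 6 libraries at 2 mg/kg and 0 at 3 mg/kg, at least 10.6-fold lower when the empty side is set to 3 counts in all, or 5.28-fold if each fragment was counted as 2. Sspn, which encodes sarcospan, had 32 and 0 counts, at least 8.9-fold lower or 4.45-fold. Gdpgp1 went the other way, with 0 counts at 2 mg/kg and 18 at 3 mg/kg, at least 7.19-fold higher or 3.6-fold. The edgeR adjusted p of these 3 were 0.763, 0.763 and 0.82, and these bounds cover counting error only.

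**Figure D2:**
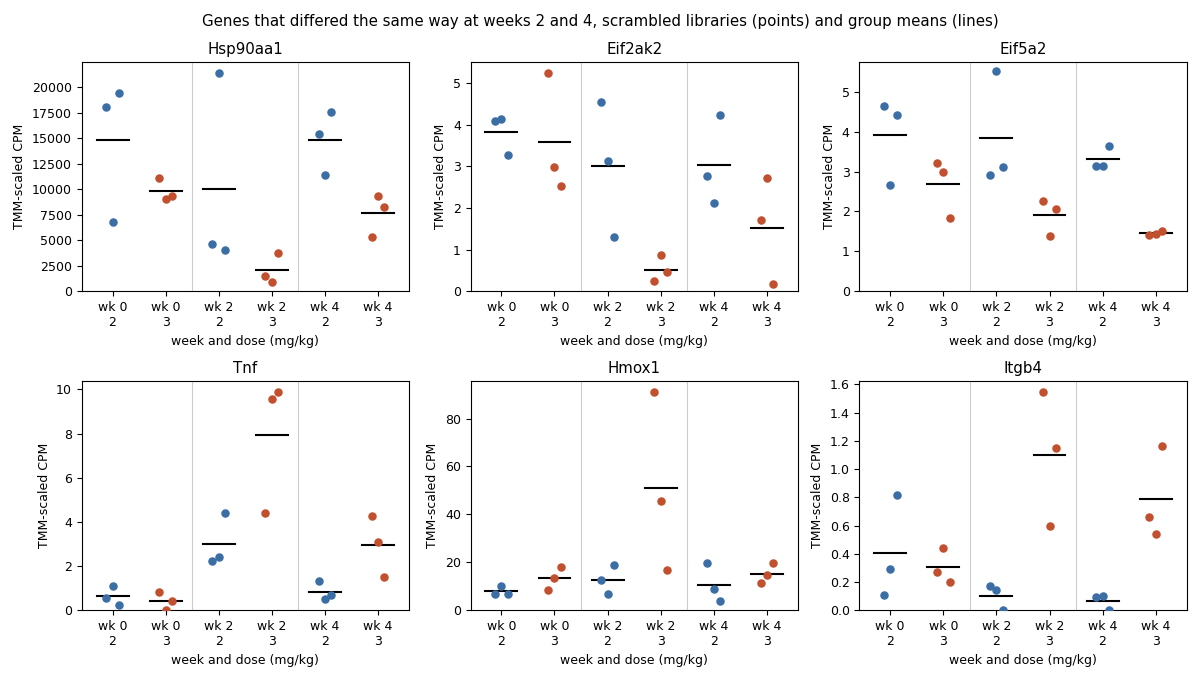
Levels in TMM-scaled CPM of 6 genes, by week and dose, with 1 point per library (blue 2 mg/kg, red 3 mg/kg) and a line at each group mean of 3. Hsp90aa1, Eif2ak2 and Eif5a2 have lower means at 3 mg/kg in both weeks after dosing, and Tnf, Hmox1 and Itgb4 have higher ones; none passed the adjustment.

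Sensors of nucleic acid did not separate by dose as a list. Of 23 tested, 1 was higher and 1 lower at an unadjusted p under 0.05, where 2.54% of all genes were higher and 2.89% lower. Their median log2 fold change was -0.04 against 0.009 for all genes, and edgeR called 0. The lower one was Eif2ak2, at 4.553, 3.121 and 1.31 CPM at 2 mg/kg and 0.2376, 0.8629 and 0.4593 CPM at 3 mg/kg at week 2, without overlap. At week 4 the groups overlapped, at 2.76, 2.12 and 4.224 CPM against 1.699, 2.707 and 0.1667 CPM, and the averaged difference was -1.73 ± 0.48 (edgeR adjusted p of 0.763). The higher one was Ticam1, the adaptor of Toll-like receptor 3, with a difference of 1.35 ± 0.47. Toll-like receptors 7 and 9, which sense RNA and unmethylated CpG DNA, differed by -0.65 ± 0.56 (Tlr7) and 1.02 ± 0.91 (Tlr9). Tlr3 had 8 and 6 counts over the 6 libraries of each dose and was not tested. The cytosolic sensors Ddx58 (RIG-I) and Ifih1 (MDA5) differed by -0.29 ± 0.37 and -0.68 ± 0.53.

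Interferon-stimulated genes lay lower at 3 mg/kg at week 2 and around zero at week 4. At week 2, 40 of 45 were below zero, 11 at an unadjusted p under 0.05 (5.89% of all genes were lower at that p) and 0 in the other direction, with a median of -0.69. At week 4 the median was 0.09 and no member passed in either direction, and edgeR called 0 members in either week. Ifit1, whose promoter is printed above, stood at 15.99, 34.9 and 19 CPM at 2 mg/kg and 12.71, 0.9956 and 1.608 CPM at 3 mg/kg at week 2. Those groups did not overlap (-2.18 ± 0.69, adjusted p of 0.158), while at week 4 it stood at 8.565, 21.5 and 13.7 CPM against 14.25, 50.18 and 14.34 CPM, overlapping by 1 library at 2 mg/kg (0.84 ± 0.66). Rsad2 (viperin), the ubiquitin ligase Herc6 and Ifit3 were also among the 11, at -1.51 ± 0.42, -1.52 ± 0.43 and -2.01 ± 0.74. Isg15, the most studied ubiquitin-like member, was not, at -0.25 ± 0.54. Iigp1, an interferon-inducible GTPase that is not on the list, had 52 counts at 2 mg/kg and 0 at 3 mg/kg at week 2, at least 15.7-fold lower with the empty side set to 3 counts, or 7.85-fold if each fragment was counted as 2. The summed level of the list at week 2 was 12520, 32580 and 9153 CPM at 2 mg/kg and 12560, 8343 and 9766 CPM at 3 mg/kg. Replicate 2 at 2 mg/kg was the 1 high library, and the other 5 overlapped. Without it the week 2 median was -0.51 with 10 members lower, and the averaged median went from -0.27 to -0.09. The week 2 count was 6 without replicate 1 at 2 mg/kg and 20 without replicate 3, and over the 6 libraries left out in turn the median ran from -1.13 to -0.51. The difference between the weeks had 8 members higher at week 4 at an unadjusted p under 0.05 and 0 lower, with 0 called by edgeR. Of all genes, 4.26% were higher in it.

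Inflammatory response genes leaned the opposite way. Averaged over both weeks, 7 of 40 were higher at an unadjusted p under 0.05 and 0 lower, where 2.54% of all genes were higher and 2.89% lower. Their median was 0.48 against 0.009 for all genes, and edgeR called 0. At week 2 alone 4 members were higher and 0 lower (median 0.25), where 6.61% of all genes were higher. At week 4 it was 5 and 0 (median 0.60), where 1.26% were. With each of the 6 week 2 libraries left out in turn, the week 2 median ran from -0.13 to 0.52 and 1 to 4 members were higher. The summed level overlapped at week 2, at 790 to 1446 CPM at 2 mg/kg and 779.5 to 2032 CPM at 3 mg/kg. Tnf, the cytokine that starts many inflammatory cascades, at chromosome 17, 35199367 to 35202007, stood at 2.22, 2.412 and 4.422 CPM at 2 mg/kg and 4.396, 9.558 and 9.875 CPM at 3 mg/kg at week 2. At week 4 it stood at 1.332, 0.5047 and 0.685 CPM against 4.248, 3.068 and 1.5 CPM. The groups overlapped by a single library at week 2 and not at week 4, and all 6 libraries at 3 mg/kg were above the 2 mg/kg mean of their week (1.60 ± 0.53, edgeR adjusted p of 0.82). Cxcl10, a chemokine that draws T cells, was above it in 6 of 6 too (2.37 ± 0.78), on 30 and 146 counts. Ccl2, a monocyte chemokine, and Acod1, which makes itaconate, differed by 2.60 ± 0.98 and 1.89 ± 0.73. Il1b and the NF-kappa-B inhibitor Nfkbia differed by 0.57 ± 0.41 and 0.59 ± 0.34. Without the libraries over 5% ribosomal RNA, 2 members instead of 7 passed and the median was 0.30, and without week 4, 3 mg/kg replicate 1 alone 4 passed and it was 0.23. Without week 2, 3 mg/kg replicate 1 it was 11 members and 0.53.

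Neutrophil markers, which share the blood with those inflammatory genes, had a median of 0.24 with 0 of 28 at an unadjusted p under 0.05 in either direction, and their part in the inflammatory difference was not tested. S100a9 differed by 0.32 ± 0.37. Monocyte and macrophage markers had a median of -0.14, with 9 of 24 above zero, 15 below and 0 at that p in either direction. Cd14, 1 of those 9, was above the 2 mg/kg mean of its week in 6 of 6 libraries at 3 mg/kg (0.74 ± 0.39, edgeR adjusted p of 0.909). Complement receptor C5ar1 was above it in 6 of 6 as well (0.78 ± 0.35, adjusted p of 0.886). How often this pattern occurred over all genes was not counted.

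Natural killer (NK) cell markers had the lowest median of the 26 lists. Of 23 tested, 21 were below zero, 10 at an unadjusted p under 0.05 and 0 above zero at that p, where 2.89% of all genes were lower. Their median was -1.01 against 0.009 for all genes, and edgeR called 0. At week 2 the median was -1.42, again with 10 members, and at week 4 it was -0.29 with 0. Eomes, the transcription factor that maintains NK cells, had 1.195, 1.844 and 1.31 CPM at 2 mg/kg and no counts in the 3 libraries at 3 mg/kg at week 2. That is 84 counts against 0, at least 25.4-fold lower with the empty side set to 3 counts, or 12.7-fold if each fragment was counted as 2 (adjusted p of 0.102). At week 4 the groups overlapped, at 0.2855, 2.423 and 1.484 CPM against 1.227, 0.5415 and 0.6669 CPM.

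Receptors and granule genes of NK cells were among the 10 in the averaged comparison. The receptor Klrd1 (CD94) differed by -1.14 ± 0.39, Klre1 by -2.60 ± 0.82 and Klra4 by -2.39 ± 0.87. Granzymes A and B, which kill target cells, differed by -1.34 ± 0.49 (Gzma) and -1.01 ± 0.47 (Gzmb). The summed NK level at week 2 was 79.23, 147.3 and 46.52 CPM at 2 mg/kg and 34.22, 22.1 and 62.92 CPM at 3 mg/kg, so the groups overlapped by 1 library. At week 4 it was 56.43, 184.3 and 87.45 CPM against 104.5, 77.97 and 91.2 CPM, with full overlap. With each of the 12 libraries left out in turn the averaged median stayed between -1.27 and -0.73, and 4 to 12 members passed. It was 4 without replicate 2 at 2 mg/kg of either week, and 5 without week 2, 3 mg/kg replicate 1. The week 2 count was 6 without replicate 2 at 2 mg/kg, with a median of -0.82. With sex as a covariate 7 passed.

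B cell markers lay lower at week 2 (median -0.63) and near zero at week 4 (-0.02). At week 2, 5 of 22 were lower and 0 higher at an unadjusted p under 0.05, where 5.89% of all genes were lower. That week 2 count rested on single libraries: it was 0 without replicate 2 of either dose, 1 without 3 mg/kg replicate 1 and 12 without 3 mg/kg replicate 3, and the median ran from -1.48 to -0.30. Ms4a1, which encodes CD20, was the 1 member in the averaged comparison, at -1.03 ± 0.47. T cell markers had a median of -0.38 at week 2, with 1 of 23 lower, and 0.07 at week 4. Cd3e, part of the T cell receptor complex, differed by 0.07 ± 0.34 over both weeks.

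**Figure D3:**
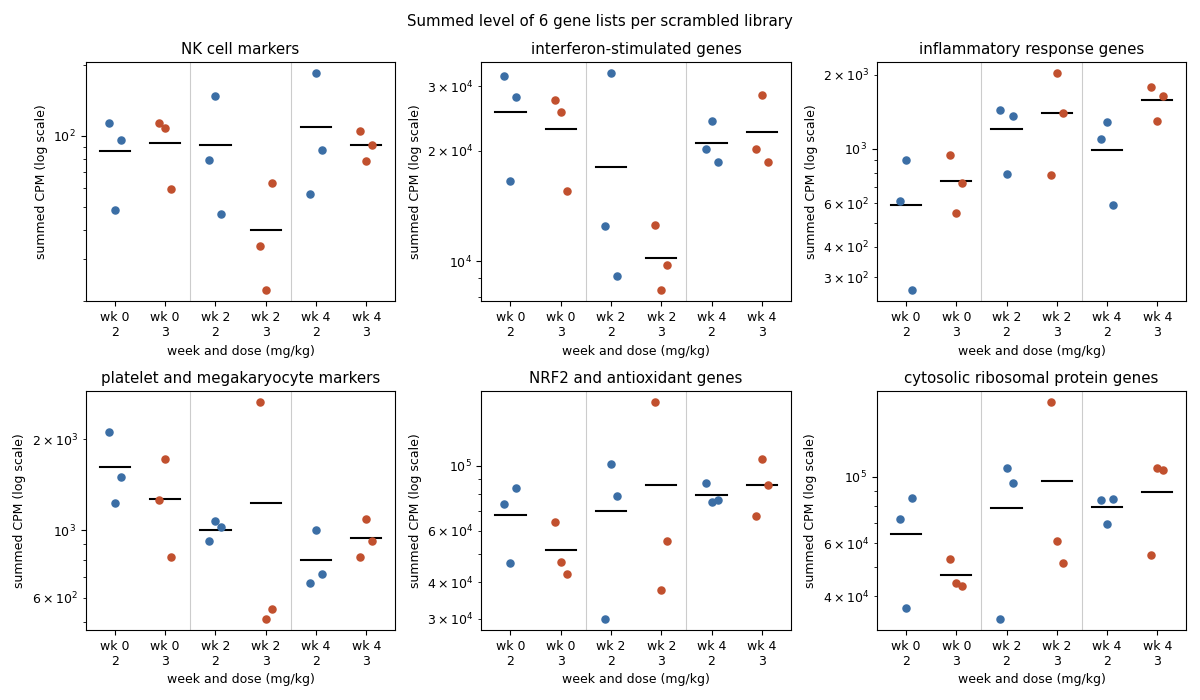
Summed CPM of 6 gene lists on a log axis, by week and dose, with 1 point per scrambled library (blue 2 mg/kg, red 3 mg/kg) and a line at each group mean. The doses overlap in every panel at week 4 except the inflammatory response genes, where 1303 to 1791 CPM at 3 mg/kg lie above 593.3 to 1287 CPM, and 1 red point at week 2 stands high in the platelet, NRF2 and ribosomal protein panels.

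Platelet, antioxidant and ribosomal protein genes had higher medians at 3 mg/kg, and in each the same library carried it. Of 24 platelet and megakaryocyte markers 5 were higher and 2 lower at an unadjusted p under 0.05 (median 0.41). Of all genes, 2.54% were higher and 2.89% lower. The summed level at week 2 was 2651 CPM in 3 mg/kg replicate 1, against 508.7 and 549.5 CPM in the other 2 and 921.1 to 1071 CPM at 2 mg/kg. Without replicate 1 the list's median was -0.12, with 0 higher and 2 lower, and without replicate 2 or 3 of that group 9 or 10 were higher. The platelet glycoproteins Gp1ba and Gp1bb, which bind von Willebrand factor, were among the higher ones (1.11 ± 0.48 and 1.09 ± 0.45). The signalling regulator Rgs18 and multimerin Mmrn1 were the lower ones (-0.86 ± 0.38 and -1.35 ± 0.52).

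NRF2 and antioxidant genes had 5 of 33 higher and 0 lower at an unadjusted p under 0.05 over both weeks (median 0.39), where 2.54% of all genes were higher. At week 2 alone it was 12 and 0 (median 0.69), where 6.61% of all genes were higher. At week 4 it was 0 and 1 (median 0.06). Hmox1, the heme oxygenase that breaks down free heme, at chromosome 8, 75093618 to 75100593, stood at 12.64, 6.668 and 19 CPM at 2 mg/kg and 91.14, 45.6 and 16.76 CPM at 3 mg/kg at week 2. At week 4 it stood at 19.51, 8.681 and 3.653 CPM against 11.23, 14.62 and 19.84 CPM. The groups overlapped in both weeks, though 6 of 6 libraries at 3 mg/kg were above the 2 mg/kg mean of their week (1.26 ± 0.38, edgeR adjusted p of 0.82). The glutathione enzymes Gclc and Gss differed by 1.03 ± 0.38 and 1.63 ± 0.62. Without week 2, 3 mg/kg replicate 1 the list's median was -0.09 and 1 member passed, and without replicate 2 or 3 of that group 10 or 11 did.

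Of 84 cytosolic ribosomal protein genes 83 were above zero with a median of 0.31, where 50.8% of all genes were above zero. Of these 84, 0 had an unadjusted p under 0.05. Without that library 85 genes passed the filter, of which 18 were above and 67 below zero, with a median of -0.10.

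**Figure D4:**
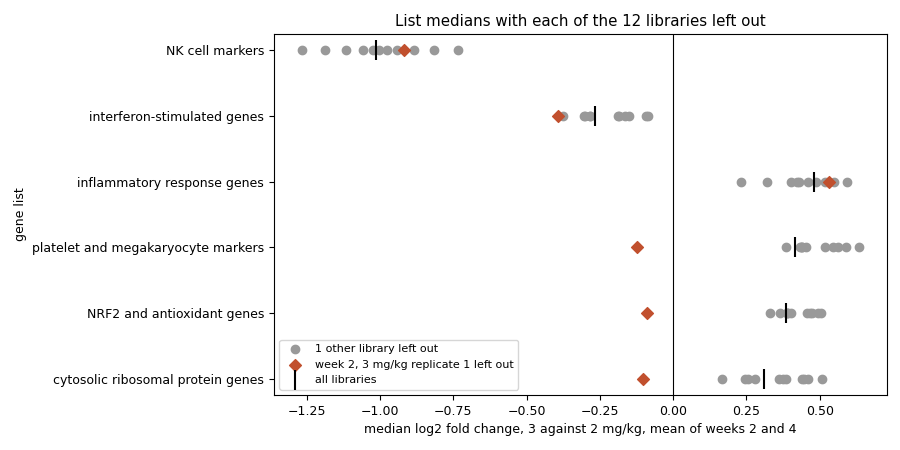
Median log2 fold change of 6 lists, 3 against 2 mg/kg averaged over weeks 2 and 4, with all libraries (black tick) and with each of the 12 libraries left out (grey points, and a red diamond for week 2, 3 mg/kg replicate 1). NK cell markers stay below zero and inflammatory response genes above it in all 12 fits, while the diamonds of the lower 3 lists lie at -0.12, -0.09 and -0.10.

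Red cell genes had medians of opposite sign in the 2 weeks. Of 52 erythroid genes at week 2, 13 were higher and 3 lower at an unadjusted p under 0.05 (median 0.40), and at week 4 it was 0 and 3 (median -0.25). Of all genes, 6.61% were higher and 5.89% lower at week 2, and 1.26% and 1.2% at week 4. The difference between the weeks had 15 members on the side of a lower value at week 4 and 2 on the other, and edgeR called 0. Of all genes, 5.4% and 4.26% lay on those sides. The largest at week 2 was Alad, the second enzyme of heme synthesis, at 738, 16 and 15.62 CPM at 3 mg/kg against 3.756, 27.24 and 39.15 CPM at 2 mg/kg. Its difference of 3.46 ± 0.97 came from replicate 1, and the other 2 libraries lay within the range at 2 mg/kg. Without replicate 1, 4 erythroid genes were higher and 2 lower at week 2, with a median of -0.11. Without 2 mg/kg replicate 1 it was 4 and 5, and without 2 mg/kg replicate 2 it was 20 and 1. Alas2 and the anion exchanger Slc4a1 (band 3) differed by -0.04 ± 0.23 and 0.02 ± 0.39 over both weeks.

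Genes of the heat shock and unfolded protein responses also differed in sign between the weeks. At week 2, 10 of 37 were higher and 2 lower at an unadjusted p under 0.05 (median 0.31), where 6.61% of all genes were higher and 5.89% lower. At week 4 it was 0 and 3 (median -0.50), where the shares were 1.26% and 1.2%. The week 2 count of higher members was 3 without 3 mg/kg replicate 1 (median 0.06), and 4 or 6 without 2 mg/kg replicate 1 or 3. Hyou1, a chaperone of the endoplasmic reticulum, stood at 11.17, 7.301 and 9.645 CPM at 3 mg/kg against 4.781, 4.823 and 2.948 CPM at 2 mg/kg at week 2. At week 4 it was the reverse, 4.814, 1.624 and 2.334 CPM against 6.852, 6.057 and 7.193 CPM, without overlap in either week. The difference between the weeks was -2.33 ± 0.51, with an edgeR adjusted p of 0.128.

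Further lists cover DNA methylation, miR-29 targets, fetal globin, the miRNA machinery and cholesterol. In the averaged comparison 2.54% of all genes were higher and 2.89% lower at an unadjusted p under 0.05. Of 17 genes of the DNA methylation machinery, 0 were at an unadjusted p under 0.05 in the averaged comparison or in either week, with a median of 0.11. Dnmt3a, the de novo methyltransferase named in the study's title, differed by 0.12 ± 0.53, and Dnmt1, the maintenance enzyme, by -0.12 ± 0.34. Of 34 known miR-29 targets 1 was lower at that p, Eomes, and 0 higher (median 0.00). The target Mcl1, a survival factor, differed by 0.04 ± 0.25. Fetal globin regulators had 0 of 33 at that p averaged over the weeks (median 0.06), and 3 higher and 3 lower at week 2. Of all genes, 6.61% were higher and 5.89% lower at week 2. In the difference between the weeks 1 regulator was higher and 5 lower at week 4, where 4.26% and 5.4% of all genes were. The miRNA machinery had 18 of 22 members below zero with a median of -0.15, where 50.8% of all genes were above zero. In that list 1 member was lower at that p, Tut4, which adds uridines to RNA ends (-0.83 ± 0.39). Ago2, the slicing Argonaute, differed by 0.04 ± 0.38. Cholesterol genes, listed because the oligonucleotides carry cholesterol per the series title for MIR29B, had a median of 0.13, with 1 of 33 higher and 0 lower at that p.

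**Figure D5:**
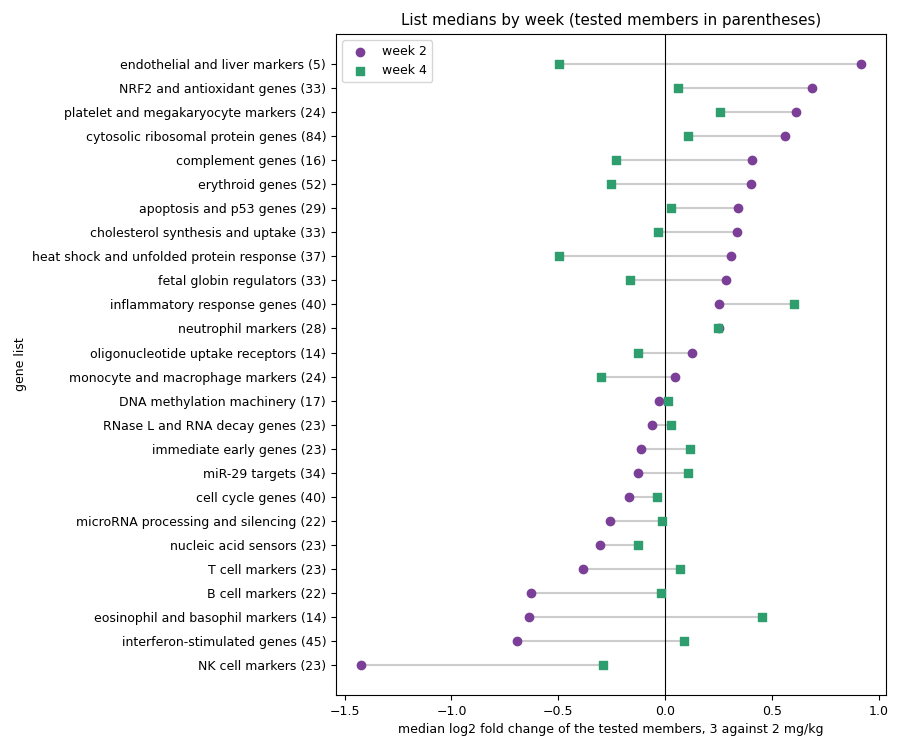
Median log2 fold change of each gene list, 3 against 2 mg/kg, at week 2 (purple circles) and week 4 (green squares), with the number of tested members in parentheses. NK cell markers lie lowest at week 2 (-1.42), and most lists lie nearer to zero at week 4, the inflammatory response genes (0.25 and 0.60) being among the exceptions.

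The same dose arms at week 0 gave 0 called genes of 11953 (0%) by edgeR and 0 by DESeq2, with 327 (2.74%) at an unadjusted p under 0.05. The dose difference after dosing was set against that at week 0, and 0 genes (0%) passed in edgeR and 0 in DESeq2, with 478 (4%) at an unadjusted p under 0.05. Of the 5 genes called at week 2, Erfe had the week 0 difference of -1.18 ± 1.04 and Zfp825 -0.08 ± 0.38. Ndufa10 stood lower at 3 mg/kg at week 0 (-0.74 ± 0.36), opposite to week 2. Gapdh, a glycolytic enzyme, likewise differed by -1.22 ± 0.37 at week 0 and 1.12 ± 0.37 at week 2. Among the lists, NK cell markers had a week 0 median of 0.13 with 0 of 23 at an unadjusted p under 0.05, and interferon-stimulated genes 0.33 with 0 of 45. Inflammatory response genes had 0.22, with 2 of 40 higher and 0 lower. Set against week 0, the dose difference after dosing was higher in 303 of 11953 genes and lower in 175 at an unadjusted p under 0.05. At that p NK cell markers had 2 lower and 0 higher (median -1.02), and inflammatory response genes 3 higher and 2 lower (median 0.34). Erythroid genes had a week 0 median of -0.52, with 5 of 52 lower and 0 higher at that p. Neutrophil markers had one of 0.54, with 1 of 28 higher. Over all 11953 genes, 137 were higher and 190 lower at week 0 at that p.

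The dose difference of the scrambled control was also set against that of MIR29B at the same weeks, and edgeR called 0 genes (0%) and DESeq2 0, with 387 (3.24%) at an unadjusted p under 0.05. Hsp90aa1 had a difference between the arms of -1.96 ± 0.58, Eif5a2 of -1.56 ± 0.42 and Zfp825 of -1.51 ± 0.39, all with an adjusted p of 1. In this comparison 198 of the 11953 genes were higher and 189 lower at an unadjusted p under 0.05. Inflammatory response genes had 7 of 40 higher and 0 lower at that p (median 0.82 against 0.06 for all genes). NK cell markers had 5 of 23 lower and 0 higher (median -1.07).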

How the data were processed

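RNA of 36 blood libraries was sequenced, and the analysis started from the deposited table of raw counts, not normalised, for 25856 RefSeq transcripts. The tools were HISAT2 2.0.5 and featureCounts 1.5.0-p3 on the build GRCm38, per the submitters' processing notes. The annotation release, strand setting and treatment of read mates are not given in the sources used here. No count was odd (0 odd values), so each fragment may have been counted as 2.

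Where a gene had several transcripts, the one with most counts stood for it, giving 16812 genes. Symbols came from a RefSeq table (25650 transcripts) or GENCODE (132), and 74 transcripts without one stayed in the counts and held 1.64% to 14.5% of a library. filterByExpr (minimum count 10, total 15) left 11953 genes. Counts were scaled by TMM, and levels are CPM on that scale. All 36 libraries, in 12 groups of 3, entered 1 quasi-likelihood fit in edgeR 4.0.16 under R 4.3.3 (common dispersion 0.25), and the code was tested on simulated data. Week was held fixed by averaging the differences within weeks 2 and 4. Standard errors are the absolute log2 fold change over the square root of F. Alternatives used DESeq2 1.42.0, voom in limma 3.58.1, RLE scaling, no filter, fewer libraries and added covariates. Library measures were compared by a two-sided exact permutation test over 400 divisions.

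Members, gene lists and tests were chosen with earlier results of these data known. Named genes are the 24 smallest p-values of the averaged comparison, 2 per list by smallest p, a set of sensors, cytokines and markers, and up to 3 per other comparison. List members at an unadjusted p under 0.05 and the 5 genes without overlap were named beyond that rule, after their values were seen. Coordinates are those of RefSeq on GRCm38.p6. Values of 2 genes that the rule names are not reported here.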

Additional observations from a re-analysis of the deposited data

Results flagged for a closer look

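In 5 of the 24 groups of 6 libraries checked, 1 library lay far from the other 5 of its dose. Chance flags about 1 group in 20 of ordinary measures, but this rate does not hold for Xpnpep1, Erfe and Zfp825, whose levels were checked because they were called at week 2. Ribosomal RNA, counted with the noncoding entries without a symbol, took 7.388% of week 4, 3 mg/kg replicate 1, where the next library had 2.956%. Ribosomal protein genes took 15.71% of week 2, 3 mg/kg replicate 1, and the next had 8.873%. In that library Xpnpep1 was at 21.15 CPM, the next being 8.23, and Erfe was at 12.24 CPM, the next being 2.346. Zfp825 was at 32.77 CPM in week 2, 2 mg/kg replicate 2, the next being 15.65.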

How the results depend on the processing

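The count of genes called depended on the fit. DESeq2 called 7 genes in the averaged comparison, 241 at week 2 and 75 in the difference between weeks. When genes with low counts were kept, edgeR called 22, 250, 4 and 102 in the averaged comparison, at week 2, at week 4 and in the difference between weeks. It then also called 7 at week 0, 22 for after dosing minus week 0 and 5 for scrambled minus MIR29B. With sex as a covariate it called 1 in the averaged comparison and 4 at week 2, of which 3 were among the 5. At week 2 it called 0 with the 12 scrambled libraries alone, voom called 0 with the replicate number as an animal block, and edgeR 0 without the libraries over 5% ribosomal RNA. With the transcript length index as a covariate it called 135 at week 2 and 11 in the difference between weeks. The cause of these differences was not tested. All 5 genes called at week 2 were among the 241, the 250 and the 135. Leaving out 1 library at a time gave 0 to 2 genes in the averaged comparison, 0 to 118 at week 2 and 0 to 4 in the difference between weeks. The averaged comparison had 2 without week 2, 2 mg/kg replicate 1 and 1 without replicate 3. Week 2 had 18, 0 and 66 without 2 mg/kg replicates 1, 2 and 3 and 1, 81 and 118 without those at 3 mg/kg. Deviations from group means were correlated between libraries to look for pairing by replicate number. Of 18 same-numbered pairs, 6 correlated above 0.1 (range -0.535 to 0.437), as did 10 of 36 differently numbered pairs. These pairs include ones across doses, and deviations within a group sum to zero, so they cannot decide whether animals were shared. With a replicate block edgeR called 0 in the averaged comparison and 7 at week 2, the 5 genes included. An averaged comparison of those 12 libraries with an interaction of week and dose (0 genes called) and the list values with libraries left out were chosen after seeing the data.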
